A study of Mus musculus with 8 samples.

Results

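The genes described here are 34 glial genes of satellite glia and of the Schwann lineage, other than the genes of myelin itself. They were taken by symbol from a table of 23827 rows of read counts, where 33 stood under their present symbol and Mia under its older one, Mia1. RNA with poly(A) tails was sequenced from the superior cervical ganglia, the uppermost ganglia of the sympathetic chain, of 8 mice on postnatal day 1. The 4 conditional knockout (cKO) animals were KIF1Bb fl/fl and DBHcre +/-, and the 4 control (WT) animals were KIF1Bb fl/fl and DBHcre -/-, all labelled C57Bl6/n. Both groups thus carried the loxP-flanked allele of KIF1B beta, a kinesin motor protein, and the groups differed by the Cre recombinase as well as by the deletion. Cre stood under the promoter of Dbh, dopamine beta-hydroxylase, which marks noradrenergic cells, and whether glia carried the deletion was not measured. Each library came from the ganglion pair of 1 animal.

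Satellite glia are flat cells that wrap the cell bodies of ganglion neurons, and Schwann cells ensheath their axons. Both arise from the neural crest and depend on the transcription factor Sox10. Neuregulin 1 from axons acts on glia through Erbb3, which binds the ligand, and Erbb2, which supplies the kinase, and this signal sustains glial survival and growth.

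Total counts lay between 16214912 and 18114418 per library. The targeted gene itself, Kif1b, averaged 260 ± 52.7 CPM in cKO ganglia and 1224 ± 222 CPM in WT ganglia (CPM, counts scaled to the size of the library; SD, n = 4 each). It lies on chromosome 4 (149176319 to 149307693 in GRCm38). The members set down as a check of the label were present, since Sox10, S100b, Fabp7, Erbb3 and Cdh19 each had at least 5.95 CPM in every library. Of the markers of central glia, Olig1, Olig2 and Mobp had at most 0.486 CPM in any library, while Aqp4, Aldh1l1 and Mog were present at means of 2.19 to 3.82 CPM in cKO and 2.86 to 4.74 CPM in WT ganglia. Of the melanocyte markers, Tyr had no count and Dct, Mlana and Slc45a2 had at most 0.397 CPM. Tyrp1, an enzyme of pigment synthesis, rose, with 41.5 ± 2.96 CPM in cKO and 22 ± 3.27 CPM in WT ganglia (SD, n = 4 each; edgeR adjusted p = 0.00623). Mitf had 3.885 CPM in cKO and 3.851 CPM in WT ganglia, Pmel had 1.692 and 1.3 CPM, and neither rose or fell. The 7 melanocyte markers summed to 45.3 to 49.8 CPM in cKO and 23.6 to 29.3 CPM in WT ganglia, most of it Tyrp1. The part of this shift in the glial results was not tested. Some libraries stood apart. Markers of muscle, 10 genes, summed to 190 CPM in cKO 1 and 62.0 CPM in WT 1, beside 11.4 to 20.5 CPM in the other 6 libraries. Sensory neuron markers summed to 179 CPM in cKO 4 and 77.3 CPM in WT 4, beside 30.5 to 49.5 CPM in the others. The results without either pair of libraries are given after the genes. The groups are described by tests with edgeR's quasi-likelihood method on all 14592 genes that passed a filter on low counts, and "rose" or "fell" stands for a Benjamini-Hochberg adjusted p below 0.05 over all of them. The log2 change of a gene is the fitted log2 fold change of cKO over WT.

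Among the 34 glial genes, 32 passed the filter. In cKO ganglia 6 rose, among them Apoe, the apolipoprotein that glia secrete. Of these 6, the connexin gene Gjc3 and Art3 had the largest log2 changes, and Plekhb1 had the smallest adjusted p (edgeR, 0.00902). Aldoc, the gene of the glycolytic enzyme aldolase C, was the single member that fell, and 25 did not pass. Over all genes tested, 2.72% passed, 1.60% higher and 1.12% lower in cKO ganglia. The direction was shared more widely than the calls. Of the 32 members 28 had a positive log2 change and their median was 0.44, beside -0.001 over all genes tested, of which 49.9% were positive. Unadjusted p was below 0.05 for 19 members, beside 16.8% of all genes tested. In whole ganglia, more glial cells, more RNA per glial cell and a smaller share of RNA from other cells cannot be told apart.

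The tools differed in how many members they passed. DESeq2 passed 9 members as higher and 1 as lower, beside 6.72% of all genes, 3.72% higher and 3.01% lower. With limma voom 6 rose and 1 fell, beside 2.97% of all genes, 1.74% higher and 1.23% lower. Voom with sample weights passed 12 as higher and 2 as lower, beside 10.5% of all genes, 6.05% higher and 4.50% lower. The 7 members that passed in edgeR passed in each of these 3. DESeq2 added Sox10, Cdh19 and S100b, and voom with sample weights added Sox10, Nrg1, Erbb2, Erbb3, Lgi4, Cdh19 and Gas7.

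For 5 of the 7 members that passed in edgeR, among them Aldoc, which fell, a window at a RefSeq start is printed. Sox proteins, among them Sox10, bind DNA at the core letters ACAAAG or ACAATG. The windows hold 250 bases before and 50 after a RefSeq start (GRCm38.p6), 5′ to 3′ on the gene's strand, and capitals mark either core or its reverse complement, CTTTGT or CATTGT. RefSeq windows were matched for 25 of the members, with several starts for some genes.
Gjc3, chr5:137963049-137963348, minus strand: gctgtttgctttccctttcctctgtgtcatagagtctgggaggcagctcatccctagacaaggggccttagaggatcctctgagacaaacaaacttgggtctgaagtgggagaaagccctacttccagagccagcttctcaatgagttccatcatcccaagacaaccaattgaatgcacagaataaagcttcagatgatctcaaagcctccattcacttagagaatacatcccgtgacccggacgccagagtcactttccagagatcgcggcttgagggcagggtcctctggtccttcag
Apoe, chr7:19699139-19699438, minus strand: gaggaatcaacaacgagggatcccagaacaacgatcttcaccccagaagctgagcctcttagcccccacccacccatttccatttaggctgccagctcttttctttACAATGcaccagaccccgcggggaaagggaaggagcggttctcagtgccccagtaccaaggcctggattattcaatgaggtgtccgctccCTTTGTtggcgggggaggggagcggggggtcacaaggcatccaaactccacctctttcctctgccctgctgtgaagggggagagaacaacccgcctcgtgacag
Plekhb1, chr7:100656916-100657215, minus strand: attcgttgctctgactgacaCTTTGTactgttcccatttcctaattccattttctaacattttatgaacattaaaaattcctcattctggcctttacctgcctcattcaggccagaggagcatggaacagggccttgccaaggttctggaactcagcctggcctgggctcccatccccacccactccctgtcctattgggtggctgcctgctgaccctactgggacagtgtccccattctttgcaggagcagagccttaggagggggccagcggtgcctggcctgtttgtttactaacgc
Art3, chr5:92387884-92388183, plus strand: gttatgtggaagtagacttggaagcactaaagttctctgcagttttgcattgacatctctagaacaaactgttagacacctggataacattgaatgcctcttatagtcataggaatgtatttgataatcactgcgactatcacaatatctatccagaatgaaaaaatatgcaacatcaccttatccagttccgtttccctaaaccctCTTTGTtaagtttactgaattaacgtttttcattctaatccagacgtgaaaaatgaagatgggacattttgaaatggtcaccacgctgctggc
Aldoc, chr11:78322823-78323122, plus strand: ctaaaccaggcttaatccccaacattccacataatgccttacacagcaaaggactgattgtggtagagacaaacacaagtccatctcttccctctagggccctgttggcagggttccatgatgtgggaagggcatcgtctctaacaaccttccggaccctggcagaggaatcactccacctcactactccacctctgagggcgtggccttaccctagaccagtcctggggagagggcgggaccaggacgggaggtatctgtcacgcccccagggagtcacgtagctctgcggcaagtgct

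The Apoe window held a match to each core, beginning 144 and 54 bases before the start, the windows of Plekhb1 and Art3 held 1 each, and those of Gjc3 and Aldoc held none. For Apoe, Plekhb1 and Art3 the window shown is the one that held a match, chosen after the search. The other windows, 2 of Apoe, 1 of Plekhb1 and 2 of Art3, held none, nor did the other window of Aldoc. The windows shown for Plekhb1 and Art3 lie at starts inside the annotated gene, and the windows nearest its 5′ end held none. Rxrg and Ttyh1 also passed, and their windows, not printed, held none. Over the 7 members that passed in edgeR, 3 of 14 windows held either core (21.4%). Over the members, 6 of 33 windows held either core (18.2%), beside 20.2% of 13610 windows of tested genes and 28.6% of all 32851 windows in the RefSeq table. The cores are short, and these shares describe letters in a window and no binding.

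Per length, Apoe stood above every other member, at 1002 ± 86.4 CPM per kilobase of merged exons in cKO and 646 ± 106 in WT ganglia (SD, n = 4 each; exon lengths from GENCODE vM21). Fabp7, the brain lipid-binding protein of immature glia, and Dbi, an acyl-CoA-binding protein, followed with 283 ± 123 and 208 ± 61.7 CPM per kilobase in cKO and 296 ± 107 and 162 ± 38.2 in WT ganglia. Fabp7 lay above Dbi in each of the 8 libraries, and the lowest Apoe library, at 522, lay above the highest of Fabp7, at 416. The next 6 in WT order, Cadm4, Aldoc, Ednrb, Cryab, Glul and Ttyh1, had WT means between 31.8 and 43.5 CPM per kilobase, and their neighbours in that order did not differ beyond their SDs. Sox10 had 34.1 ± 5.88 in cKO and 21.2 ± 4.78 CPM per kilobase in WT ganglia. At the low end, Gfap, the intermediate filament protein of reactive glia, had 0.382 ± 0.0985 in cKO and 0.241 ± 0.155 CPM per kilobase in WT ganglia. Pllp, the gene of plasmolipin, and Mia, a secreted protein known from cartilage and melanoma, did not pass the filter, with 3 to 15 and 1 to 7 counts per library.

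**Figure D1:**
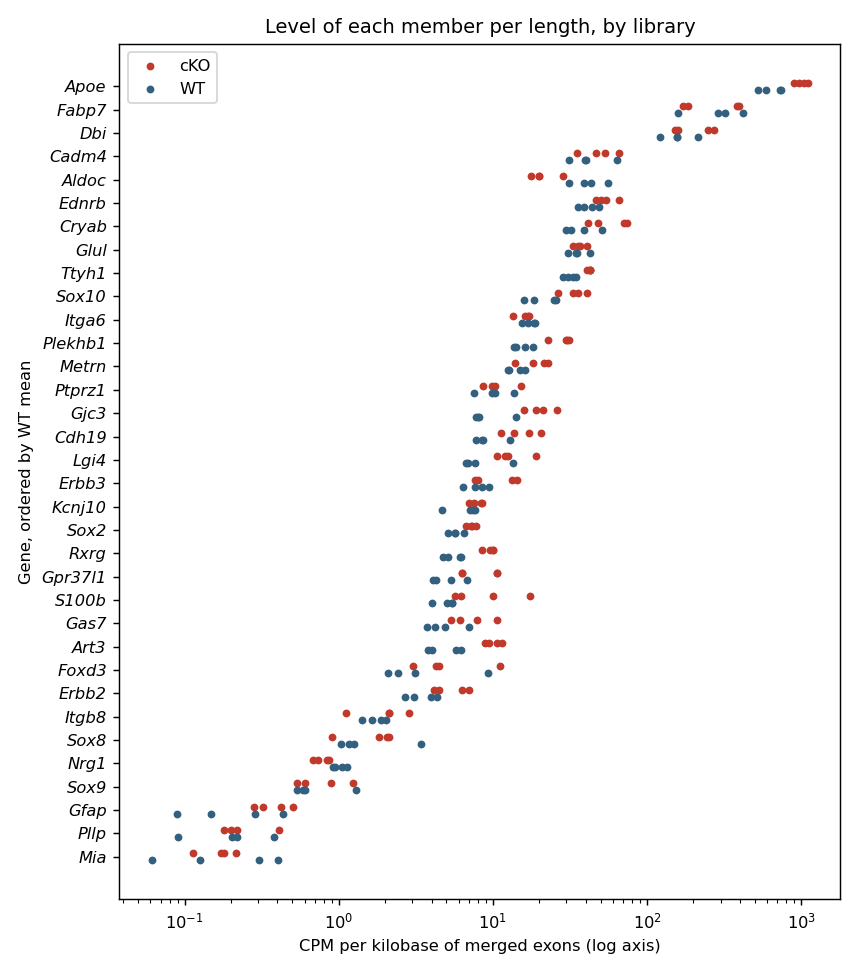
CPM per kilobase of merged exon length on a log axis for each of the 34 glial genes (rows, ordered by WT mean), with 1 point per library, cKO above WT in each row. Apoe lies apart at the top, and Gfap, Pllp and Mia lie at the bottom.

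Among the 6 transcription factors, Rxrg rose and the other 5 did not pass in edgeR. Rxrg encodes retinoid X receptor gamma. It had 23.0, 19.6, 23.1 and 21.9 CPM in cKO 1 to 4, against 14.2, 10.9, 14.0 and 11.7 CPM in WT 1 to 4. The groups did not overlap, and the log2 change was 0.79 (SE 0.13, edgeR adjusted p = 0.0128). Sox10, the defining factor of the lineage, had 124, 81.0, 109 and 101 CPM in cKO 1 to 4, against 77.7, 56.4, 76.5 and 48.6 CPM in WT 1 to 4. Each cKO library lay above each WT library, cKO 2 and WT 1 being nearest, and the log2 change of 0.68 (SE 0.18) did not pass (edgeR adjusted p = 0.0704). For Sox10 an exact two-sided permutation test gave p = 0.0286, which is the least possible with 70 assignments. With 4 libraries per group this p follows once the groups do not overlap, so it adds nothing to that gap. Groups lay apart with cKO above WT in 6.00% of all genes tested. Sox10 passed without WT 1 (edgeR adjusted p = 0.0474). It also passed in DESeq2 (adjusted p = 0.0123) and in limma voom with sample weights (adjusted p = 0.00473). In the other 7 fits with 1 library left out Sox10 did not pass (edgeR adjusted p up to 0.226). Limma voom without weights did not pass it either.

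Sox2, which marks precursor-like glia, had 16, 15.2, 13.8 and 14.8 CPM in cKO 1 to 4, against 13.3, 10.6, 11.7 and 11.7 CPM in WT 1 to 4. The groups lay apart, with a log2 change of 0.34 (SE 0.12, edgeR adjusted p = 0.172). Sox8 and Sox9, the relatives of Sox10 in the SoxE group, were scarce and uneven. Sox8 had 6.40, 6.63, 2.84 and 5.72 CPM in cKO 1 to 4, against 3.92, 3.64, 10.6 and 3.22 CPM in WT 1 to 4. Sox9 had 2.51, 3.70, 2.21 and 5.13 CPM in cKO 1 to 4, against 2.21, 2.51, 5.38 and 2.43 CPM in WT 1 to 4. Both were highest among WT libraries in WT 3, and both groups overlapped. Their log2 changes of 0.01 (SE 0.40) and 0.11 (SE 0.35) turned negative without some libraries. With 1 library left out, the lowest values were -0.171 for Sox8 without WT 4 and -0.163 for Sox9 without cKO 4. Without WT 3 the log2 changes were 0.581 and 0.505. Sox8 shares exon bases with 2810468N07Rik on the opposite strand, which averaged 12.9 CPM in cKO and 10.3 CPM in WT ganglia. The part of this overlap in the Sox8 values was not tested.

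Foxd3, a neural crest factor kept in early glia, was uneven within both groups. It had 26, 7.05, 10.4 and 9.93 CPM in cKO 1 to 4, against 21.8, 5.64, 4.87 and 7.23 CPM in WT 1 to 4. The libraries numbered 1 were the highest of both groups. The log2 change was 0.44 (SE 0.52, edgeR adjusted p = 0.769), and it was -0.125 without cKO 1 and 1.17 without WT 1.

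None of the 3 members of the neuregulin signal passed in edgeR, though 2 of them had an unadjusted p below 0.05, and the ligand and its receptors had fold changes of opposite sign. Nrg1 had 7.60, 7.05, 8.69 and 9.01 CPM in cKO 1 to 4, against 9.56, 10.8, 9.74 and 11.8 CPM in WT 1 to 4. Every cKO library lay below every WT library, with a log2 change of -0.37 (SE 0.14, edgeR adjusted p = 0.199). Erbb2 had 36.3, 23.2, 32.8 and 21.7 CPM in cKO 1 to 4, against 22.7, 16, 20.6 and 14.0 CPM in WT 1 to 4. Erbb3 had 86.7, 48.1, 80.2 and 46.4 CPM in cKO 1 to 4, against 56.6, 51.2, 46.0 and 38.5 CPM in WT 1 to 4. Both receptor genes were high in cKO 1 and cKO 3. The groups overlapped through cKO 4 for Erbb2 and through cKO 2 and cKO 4 for Erbb3. Their log2 changes were 0.64 (SE 0.21, edgeR adjusted p = 0.136) for Erbb2 and 0.44 (SE 0.22, edgeR adjusted p = 0.341) for Erbb3. DESeq2 and limma voom passed none of these genes either, while voom with sample weights passed all 3. Erbb2 shares exon bases with Mien1 on the opposite strand, and the sources used here do not give the strand setting of the counting. Mien1 had a log2 change of -0.18 (SE 0.16).

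Ratios within a library do not depend on the scaling. Per length, Erbb3 stood at 2.07, 1.79, 2.12 and 1.85 times Erbb2 in cKO 1 to 4, against 2.16, 2.78, 1.93 and 2.38 times in WT 1 to 4. Counts of Nrg1 per count of Erbb3 were 0.0877, 0.146, 0.108 and 0.194 in cKO 1 to 4, against 0.169, 0.212, 0.212 and 0.306 in WT 1 to 4. Both ratios averaged lower in cKO ganglia, by 0.23 and 0.78 on the log2 scale, and in both the groups overlapped. Apoe to Sox10 averaged 4.38 ± 0.38 in cKO and 4.43 ± 0.19 in WT ganglia on the log2 scale (SD, n = 4 each), a difference below either SD. The ratios of Fabp7, Sox8, Sox9, Sox2 and Foxd3 to Sox10 also averaged lower in cKO ganglia. Their differences, cKO minus WT, were -0.78, -0.57, -0.56, -0.35 and -0.16 on the log2 scale, and in each the groups overlapped.

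Of 24 tested genes of the wider ErbB pathway, Lrig1, a membrane protein that restrains ErbB receptors, rose, none fell, and their median log2 change was 0.005. DESeq2 and voom also passed 1 as higher, and voom with sample weights passed 4 as higher and 1 as lower. Lrig1 had 18 ± 2.12 CPM in cKO and 12 ± 1.11 CPM in WT ganglia (SD, n = 4 each), with a log2 change of 0.59 (SE 0.13, edgeR adjusted p = 0.0403). It no longer passed without cKO 1, cKO 2, cKO 3, WT 2, WT 3 or WT 4, with adjusted p from 0.0887 to 0.150. Of 13 other tested neural crest and glial factors, 1 rose, Zeb2, a zinc-finger repressor needed for Schwann cell differentiation. Of these 13, DESeq2 and voom with sample weights each passed 4 as higher, and voom passed 1. Zeb2 had 179 ± 13.7 CPM in cKO and 115 ± 14.5 CPM in WT ganglia (log2 change 0.63, SE 0.11, edgeR adjusted p = 0.0203). It no longer passed without cKO 2, cKO 3, WT 2 or WT 4, with adjusted p from 0.0596 to 0.0846.

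**Figure D2:**
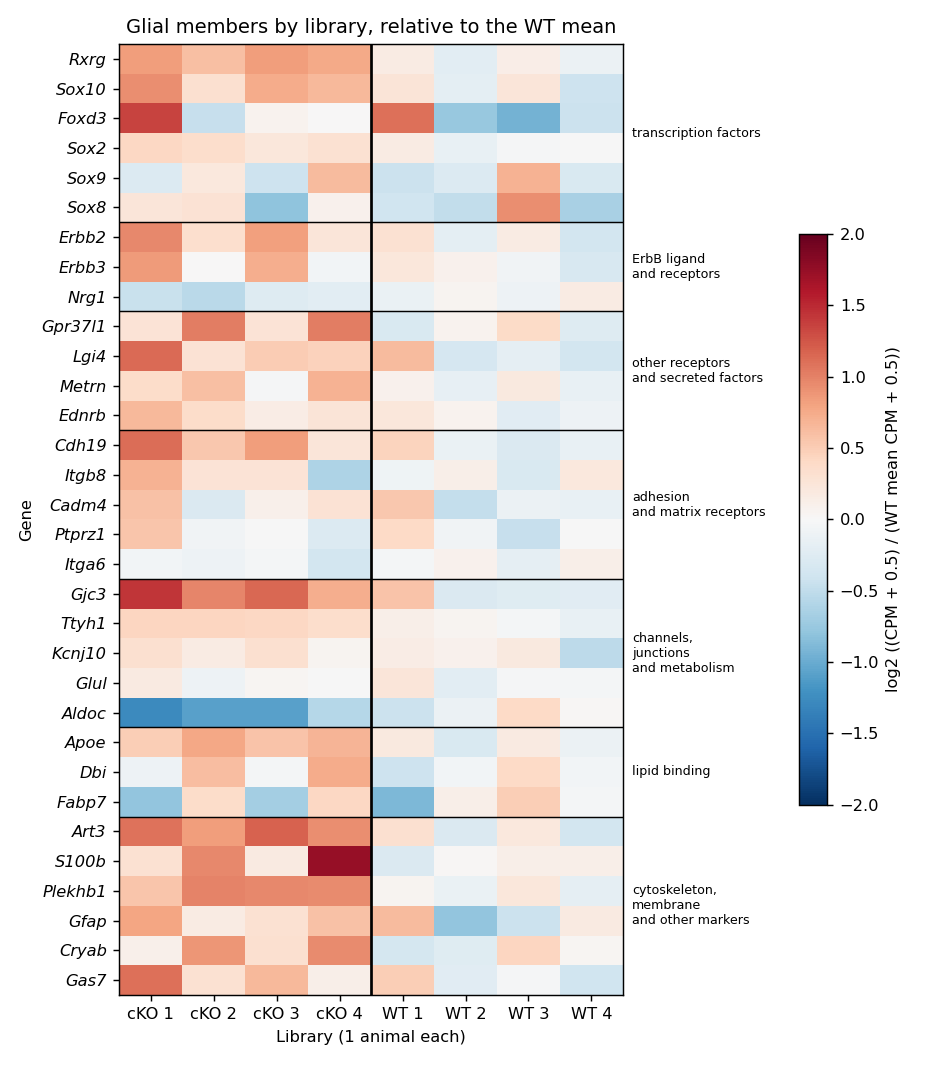
Log2 of each library's CPM over the WT mean, with 0.5 CPM added to both, for the 32 tested members (rows, grouped by role) in cKO 1 to 4 and WT 1 to 4 (columns). Red cells dominate the cKO side, Aldoc is blue there, and Foxd3 is red in cKO 1 and WT 1.

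None of the 4 tested genes of other receptors and secreted factors passed in edgeR, though all 4 had an unadjusted p below 0.05 and positive fold changes. Ednrb, the endothelin B receptor of crest-derived cells, had 281, 230, 199 and 213 CPM in cKO 1 to 4, against 208, 187, 153 and 167 CPM in WT 1 to 4. The groups overlapped, with a log2 change of 0.37 (SE 0.14, edgeR adjusted p = 0.194). The receptor gene Gpr37l1 had a log2 change of 0.72 (SE 0.23), the secreted factor gene Metrn one of 0.44 (SE 0.16), and Lgi4, a Schwann cell ligand of the membrane protein ADAM22, one of 0.64 (SE 0.25). Lgi4 passed without WT 1, its highest WT library (log2 change 0.93, edgeR adjusted p = 0.0308). In the other 7 fits with 1 library left out Lgi4 did not pass (edgeR adjusted p up to 0.485). DESeq2 and limma voom passed none of the 4, and voom with sample weights passed Lgi4. None of 6 tested LGI and ADAM partner genes passed in edgeR, also unadjusted, and DESeq2 and voom passed none. Adam11 and Adam22 were nearest, with log2 changes of 0.50 (SE 0.35) and -0.23 (SE 0.16). Of 5 tested endothelin pathway genes edgeR passed 0, with 3 below an unadjusted p of 0.05, DESeq2 passed 2 and voom 0, or 3 with sample weights. The ligand gene Edn1 had a log2 change of 1.20 (SE 0.31) and the receptor gene Ednra one of 0.48 (SE 0.13).

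No adhesion or matrix receptor gene among the members passed in edgeR, 1 of 5 at an unadjusted p below 0.05. Cdh19, a cadherin of the Schwann lineage, was that gene, with 67.1 ± 17.3 CPM in cKO and 40.5 ± 10.1 CPM in WT ganglia (SD, n = 4 each). Its log2 change was 0.73 (SE 0.21, edgeR adjusted p = 0.0988), and it passed without WT 1 (edgeR adjusted p = 0.0317) and in DESeq2 (adjusted p = 0.0224). WT 1 was the highest WT library for Cdh19. In the other 7 fits with 1 library left out Cdh19 did not pass (edgeR adjusted p up to 0.280). DESeq2 passed none of the other 4 and voom without weights none of the 5. The laminin receptor subunit Itga6 had a log2 change of -0.14 (SE 0.11), Itgb8, which activates TGF-beta with its partner subunit, one of 0.23 (SE 0.24), the nectin-like Cadm4 one of 0.21 (SE 0.23) and the receptor phosphatase Ptprz1 one of 0.09 (SE 0.21). Among 13 tested laminin and laminin receptor genes 2 rose and none fell, and the median log2 change was 0.41. DESeq2 passed 5 as higher and 1 as lower, voom passed 2 as higher, and voom with sample weights passed 8 as higher and 1 as lower. Lamb2, a laminin beta chain, had 81.0 ± 4.81 CPM in cKO and 51.5 ± 2.31 CPM in WT ganglia (log2 change 0.65, SE 0.09, edgeR adjusted p = 0.0060). Lamc3, a laminin gamma chain, had 5.34 ± 1.63 CPM in cKO and 1.57 ± 0.239 CPM in WT ganglia (log2 change 1.76, SE 0.24, edgeR adjusted p = 0.00623). Both passed with each single library left out.

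Channel, junction and metabolic genes held the members with the largest changes in both directions. Gjc3, which encodes connexin 29, a junction protein of Schwann cells, had 113, 82.6, 92.7 and 69.4 CPM in cKO 1 to 4, against 61.8, 33.8, 35.1 and 35.6 CPM in WT 1 to 4. All cKO libraries lay above all WT libraries, with WT 1 the nearest. The log2 change was 1.11 (SE 0.22, edgeR adjusted p = 0.0270). Ttyh1, a membrane protein of the tweety family, had 274, 274, 270 and 260 CPM in cKO 1 to 4, against 220, 212, 197 and 183 CPM in WT 1 to 4. The cKO libraries were within a narrow band above WT, and the log2 change was 0.41 (SE 0.09, edgeR adjusted p = 0.0433). Ttyh1 shares exon bases with 9430041J12Rik and D030047H15Rik on the opposite strand. They averaged 4.40 and 3.15 CPM in cKO and 3.48 and 2.78 CPM in WT ganglia.

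Aldoc, a marker of astrocytes in the brain, went the other way. It had 57.2, 64.8, 65.0 and 93.1 CPM in cKO 1 to 4, against 102, 127, 183 and 141 CPM in WT 1 to 4. Each cKO library lay below each WT library, with a log2 change of -0.98 (SE 0.20, edgeR adjusted p = 0.0285). The 3 tested markers of central glia had negative log2 changes with a median of -0.37, but only Aldh1l1 had an unadjusted p below 0.05. Aldh1l1 was lowest at -1.11 (SE 0.30, edgeR adjusted p = 0.0809). Mog had -0.37 (SE 0.35, edgeR unadjusted p = 0.319) and Aqp4 -0.04 (SE 0.21, edgeR unadjusted p = 0.869). Of these 3, edgeR and voom passed 0, and DESeq2 and voom with sample weights each passed 1 as lower. Kcnj10, the inward rectifier potassium channel Kir4.1 that satellite glia use to buffer potassium, had a log2 change of 0.22 (SE 0.16, edgeR adjusted p = 0.554). Glul, which encodes glutamine synthetase, had one of 0.03 (SE 0.12, edgeR adjusted p = 0.945). Of 8 other tested genes of glial ion and glutamate handling none passed in edgeR, DESeq2 or voom, 2 at an unadjusted p below 0.05, and voom with sample weights passed 1. The amino acid transporter gene Slc38a3 had a log2 change of 1.30 (SE 0.41) at 0.944 CPM in cKO and 0.380 CPM in WT ganglia.

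Of the 3 lipid-binding members, Apoe rose. It had 1934, 2355, 2055 and 2221 CPM in cKO 1 to 4, against 1582, 1117, 1558 and 1268 CPM in WT 1 to 4. The groups lay apart, and the log2 change was 0.63 (SE 0.13, edgeR adjusted p = 0.0291). Macrophages also make Apoe. The summed level of 10 macrophage markers was 204 to 339 CPM in cKO and 169 to 272 CPM in WT ganglia, with a median log2 change of 0.22 over the 10 tested. In edgeR, DESeq2 and voom 0 of the 10 passed, 1 at an unadjusted p below 0.05 in edgeR, and voom with sample weights passed 2. The part of this shift in the Apoe result was not tested. Fabp7 had 213, 478, 231 and 495 CPM in cKO 1 to 4, against 198, 401, 520 and 359 CPM in WT 1 to 4. It was low in cKO 1, cKO 3 and WT 1, and the log2 change was -0.06 (SE 0.33, edgeR adjusted p = 0.964). Dbi, which was lowest within each group in cKO 1 and WT 1, had a log2 change of 0.36 (SE 0.22). Of 11 other tested genes of apolipoproteins and lipid transport edgeR passed 0, with 1 below an unadjusted p of 0.05, DESeq2 and voom passed 0, and voom with sample weights passed 2. Apod had a log2 change of 0.70 (SE 0.25), and the receptor gene Lrp1 had 0.41 (SE 0.23).

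The remaining markers held 2 genes that rose of 6 tested. Art3, an ADP-ribosyltransferase relative held at the membrane, had 41.8, 35.1, 44.8 and 37.3 CPM in cKO 1 to 4, against 24.5, 15.8, 22.5 and 15 CPM in WT 1 to 4. Plekhb1, a membrane protein with a pleckstrin homology domain, had 85.1, 115, 112 and 111 CPM in cKO 1 to 4, against 59.7, 52.6, 67.8 and 50.8 CPM in WT 1 to 4. In both genes the groups lay apart. Log2 fold changes were 1.03 (SE 0.17, edgeR adjusted p = 0.0145) for Art3 and 0.88 (SE 0.13, edgeR adjusted p = 0.00902) for Plekhb1. Art3 shares exon bases with the chemokine gene Cxcl10 on the opposite strand, which had 4.88 CPM in cKO and 1.91 CPM in WT ganglia on average. The part of this overlap in the Art3 result was not tested.

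S100b, a calcium-binding protein and common glial marker, had 9.26, 14.8, 8.46 and 25.8 CPM in cKO 1 to 4, against 5.95, 7.52, 8.02 and 8.09 CPM in WT 1 to 4. The groups lay apart, cKO 3 and WT 4 being nearest and cKO 4 far above, and the log2 change was 0.98 (SE 0.32, edgeR adjusted p = 0.146). In DESeq2 S100b passed (adjusted p = 0.0421), and in limma voom without and with sample weights it did not (adjusted p = 0.223 and 0.207). Cryab, a small heat-shock protein, had 60.9, 104, 70.7 and 109 CPM in cKO 1 to 4, against 44.2, 47.8, 75.8 and 57.7 CPM in WT 1 to 4. Its groups overlapped (log2 change 0.61, SE 0.22, edgeR adjusted p = 0.182). Cryab shares exon bases with Hspb2, which passed at 2.67 CPM in cKO and 1.40 CPM in WT ganglia. Gfap had 2.11, 1.19, 1.36 and 1.78 CPM in cKO 1 to 4, against 1.84, 0.376, 0.630 and 1.22 CPM in WT 1 to 4, and its groups overlapped (log2 change 0.67, SE 0.41). Gas7, a cytoskeletal adaptor, had a log2 change of 0.60 (SE 0.24). Mia had 0.171, 0.179, 0.114 and 0.216 CPM in cKO 1 to 4, against 0.0613, 0.125, 0.401 and 0.304 CPM in WT 1 to 4, too few counts for a comparison.

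**Figure D3:**
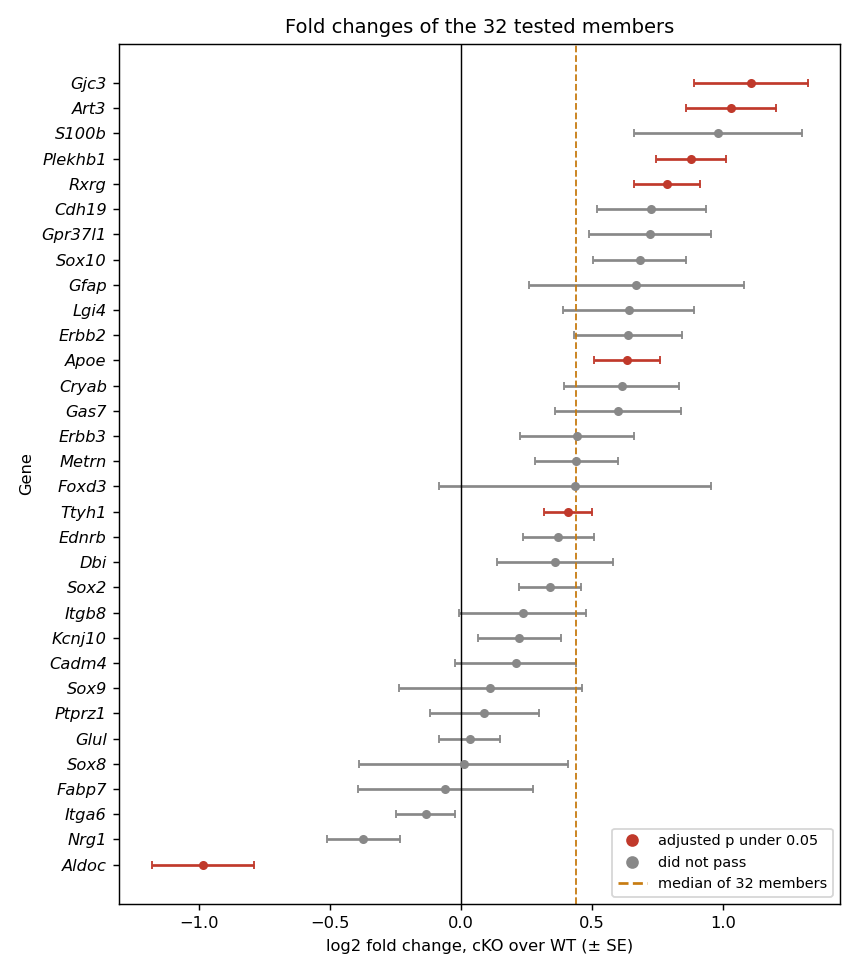
Log2 fold change, cKO over WT, with its SE for the 32 tested members in order of size. The 6 genes that rose and Aldoc, which fell, are red, and the dashed line marks the median of 0.44.

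The calls depended on which libraries were included. Of the 7 genes that passed, none passed without WT 2, where adjusted p-values in edgeR lay between 0.0549 and 0.119, and none without WT 4, with 0.0505 to 0.178. Among single libraries, Plekhb1 was lost only there. Rxrg and Art3 were also lost without cKO 3 (adjusted p = 0.0542 and 0.0556). Apoe was also lost without cKO 2 (0.0777), cKO 3 (0.0740) or cKO 4 (0.0576). Gjc3 and Aldoc were also lost without cKO 1 (0.0520 and 0.0517), cKO 2 (0.0571 and 0.0840), cKO 3 (0.0782 and 0.0790) or WT 3 (0.0637 and 0.0561). Ttyh1 was also lost without any cKO library or WT 3, with adjusted p of at least 0.0648. Log2 fold changes moved little in these settings, from 0.96 to 1.36 for Gjc3, from 0.54 to 0.70 for Apoe and from -1.15 to -0.82 for Aldoc. Over all genes 74 to 514 passed in these settings.

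**Figure D4:**
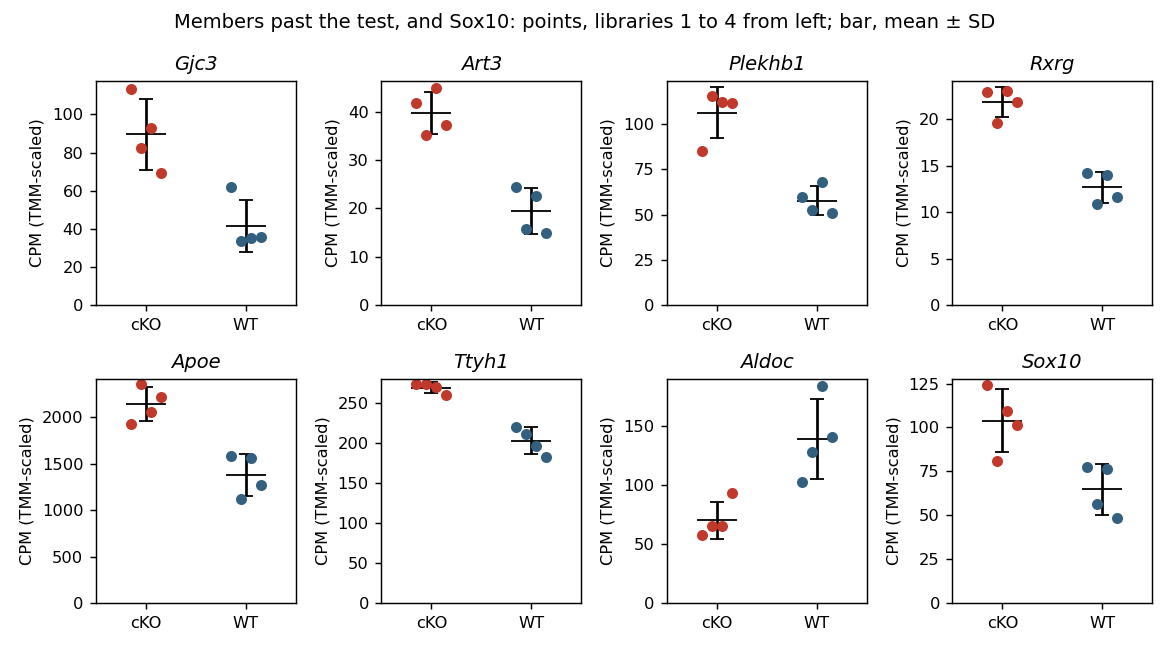
CPM by library (points, libraries 1 to 4 from left to right) with mean and SD for the 7 members that passed and for Sox10, cKO on the left and WT on the right. In each panel the groups do not overlap.

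Groups did not overlap in 9 members with cKO above WT and in 2 with cKO below, beside 6.00% and 5.02% of all genes tested. The 9 were the 6 that rose with Sox10, Sox2 and S100b, and the 2 were Aldoc and Nrg1. The summed level of all 34 members was 4539 to 5143 CPM in cKO and 3306 to 4034 CPM in WT ganglia. Without Apoe, the sum of the other 33 was 2484 to 2842 CPM in cKO and 2124 to 2476 CPM in WT ganglia.

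Myelin genes are the nearest group in kind. Of 11 tested, Mbp rose and none fell, and their median log2 change was 0.47. DESeq2 and voom with sample weights each passed 3 as higher and 1 as lower, and voom passed 2 as higher. Mbp, a major myelin protein, had 155, 157, 149 and 142 CPM in cKO 1 to 4, against 108, 86.1, 82.8 and 84.0 CPM in WT 1 to 4 (log2 change 0.74, SE 0.11, edgeR adjusted p = 0.00817, or 0.0501 without WT 4). Markers of other cell types differed as well. The summed level of 10 endothelial markers was 288 to 308 CPM in cKO and 173 to 241 CPM in WT ganglia, and 3 rose, a count of 0 to 5 with 1 library left out. For 10 fibroblast markers the sum was 7314 to 10720 CPM in cKO and 5266 to 6771 CPM in WT ganglia, and 6 rose, or 2 to 6 with 1 library left out. Median log2 changes were 0.54 for endothelial and 0.64 for fibroblast markers, so a positive median was not particular to glia. The sum of 14 markers of sympathetic neurons was 20050 to 22560 CPM in cKO and 23940 to 25960 CPM in WT ganglia, with a median log2 change of -0.17 and no gene that passed in edgeR, 6 at an unadjusted p below 0.05. DESeq2 passed 2 of the 14 as lower, voom passed 0, and voom with sample weights passed 1 as higher and 3 as lower. The summed level of 10 markers of dividing cells was 334 to 488 CPM in cKO and 245 to 383 CPM in WT ganglia, and these ranges overlapped. Their median log2 change was 0.30. In edgeR, DESeq2 and voom with or without sample weights 0 of the 10 passed, 1 at an unadjusted p below 0.05 in edgeR. The part of these shifts in the glial results was not tested.

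Some members followed single libraries. The libraries numbered 1, those high in muscle markers, gave the highest value of their group for 16 of 32 members in cKO and 18 of 32 in WT. They also gave the lowest value for 7 members in cKO and 8 in WT. The same count over all genes tested was not made. Cartilage markers summed to 98.2 to 123 CPM in cKO and 68.4 to 98.2 CPM in WT ganglia, and Cnmd and Col11a1 held most of it, while Snorc had no count. Without cKO 1 and WT 1, 8 members rose and Aldoc fell, the 7 that passed with all libraries joined by Cdh19 (log2 change 0.76, edgeR adjusted p = 0.0306) and Lgi4 (0.72, adjusted p = 0.0134), beside 2.99% of all genes, 1.93% higher and 1.06% lower. Without cKO 4 and WT 4 edgeR passed none of the 32 members, beside 0.445% of all genes tested, 0.178% higher and 0.267% lower. S100b, highest in cKO 4, had a log2 change of 0.55 without that library. The part of muscle or sensory RNA in the members' results was not tested.

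Short and long members differed within groups. Fabp7, Dbi, S100b and Cryab are the 4 tested members with under 1500 bases of merged exons. Their median deviation from the group mean was -0.48, 0.32, -0.43 and 0.51 on the log2 scale in cKO 1 to 4, and -0.35, 0.01, 0.44 and 0.05 in WT 1 to 4. The 15 members over 4000 bases had 0.38, -0.12, 0.11 and -0.23 in cKO 1 to 4, and 0.25, -0.03, -0.11 and -0.15 in WT 1 to 4. Short and long members thus deviated in opposite directions in each of the 8 libraries, least in WT 2. Over all genes with a length, 891 short ones had medians of -0.27, 0.16, -0.11 and 0.22 in cKO 1 to 4, and -0.18, -0.07, 0.24 and 0.06 in WT 1 to 4. These classes were chosen after the values were seen, and the part of length in any member's result was not tested.

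**Figure D5:**
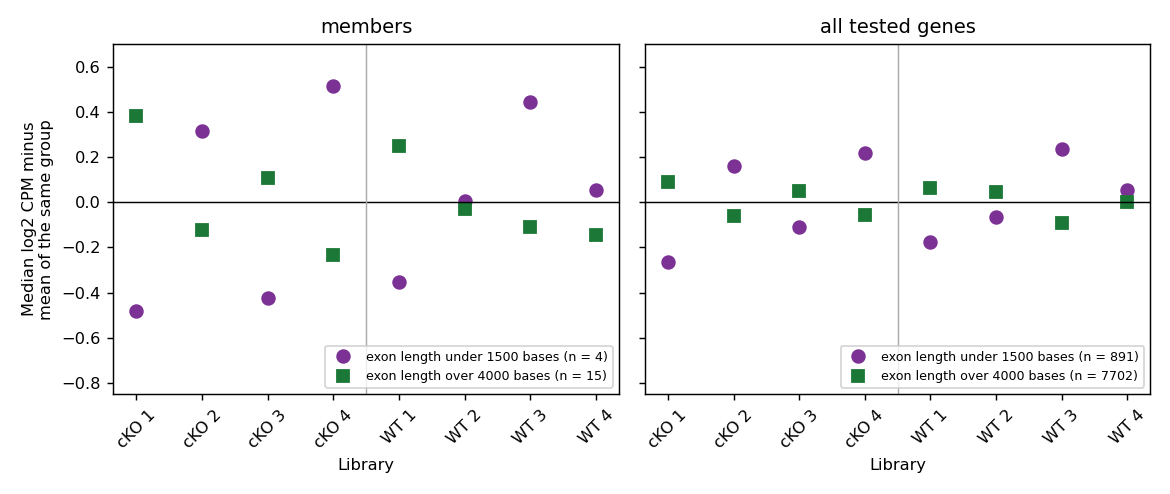
Median deviation of log2 CPM from the mean of the same group, by library, for members (left) and all tested genes (right) with under 1500 (circles) or over 4000 (squares) bases of merged exons. Short genes lie low and long genes high in cKO 1, cKO 3 and WT 1, and the reverse holds in cKO 2, cKO 4 and WT 3.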

How the data were processed

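The authors deposited 1 table of whole-number read counts per gene symbol. Per the submitters' processing notes, STAR and the mm10 build were used. Per the labels' protocols, RNA came from the ganglion pair of each animal and libraries from TruSeq v2. The STAR version, counting program, annotation and strand setting are not given in the sources used for this report. The 8 columns were matched to samples by title. The test was the robust quasi-likelihood fit of edgeR 4.0.16, run under R 4.3.3 after TMM and filterByExpr, with no covariate and with p-values adjusted over 14592 genes. The SE is the absolute log2 fold change over the square root of F. Means and SDs are in TMM-scaled CPM. The permutation test used log2 CPM with 2 as prior count. Between replicates, chi-square per gene was 7.72 to 55.5, above sampling noise, and each animal was counted once. Beyond the animal, the labels do not name litters or batches. The scripts were tested on simulated data. Members and lists were chosen with earlier results of these data known. All members were described, those that passed and 14 set genes by library. Of each pathway list, up to 4 genes that passed, or else those with the smallest p, were named. Some genes of these lists are not reported here. Alternatives were other scalings and filters, DESeq2 1.42.0, limma 3.58.1 voom without and with weights per sample, a term for the label number, and libraries left out. Lengths and positions came from GENCODE vM21 and windows from RefSeq. Short and long length classes, of 1500 and 4000 bases, were set after the values were seen.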

Additional observations from a re-analysis of the deposited data

Results flagged for a closer look

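Within groups of 4 libraries, 7 values stood far from the other 3 by Dixon's test, among 64 groups looked at, where chance gives about 1 in 20 groups. WT 1 was high in Foxd3 (21.8 CPM), Lgi4 (62.0 CPM), Cdh19 (55.5 CPM) and Gjc3 (61.8 CPM). WT 3 was high in Sox8 (10.6 CPM) and Sox9 (5.38 CPM). Plekhb1 was low in cKO 1, at 85.1 CPM.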

How the results depend on the processing

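With all libraries, 6 members rose and 1 fell in edgeR, out of 397 genes in all. The other scalings, filters and unweighted voom gave 5 or 6 and 1. DESeq2 gave 9 and 1 of 988 genes. Voom with sample weights gave 12 and 2 of 1539. The labels do not say what a shared number means. Deviations of same-numbered libraries correlated at 0.725, 0.352 and 0.265 for numbers 1, 2 and 4 and at -0.302 for number 3, so the numbers were not taken as pairs, and whether some animals were paired is not known. Not every library correlated best with its own number. A replicate block gave 12 and 1 of 687 genes, adding Sox10, Erbb2, Ednrb, Lgi4, Cdh19 and Gas7 to the members that rose. With 1 library left out, 0 to 9 members rose, 0 or 1 fell and 74 to 514 genes passed, and the members' median log2 fold change was 0.356 to 0.506. Without cKO 4 and WT 4 together, 0 rose and 0 fell of 65 genes, and that median was 0.458. The cause of these differences was not tested. Sign changes were seen in genes that did not pass. Sox8 was -0.002 with DESeq2 size factors, -0.003 in DESeq2, -0.208 without cKO 1 and WT 1, -0.2 without cKO 4 and WT 4, and -0.171 to 0.581 with 1 library left out. Sox9 was -0.267 without cKO 4 and WT 4 and -0.163 to 0.505 with 1 left out. With 1 left out, Foxd3 ranged from -0.125 to 1.17, Ptprz1 from -0.125 to 0.244, Glul from -0.038 to 0.118 and Fabp7 from -0.276 to 0.143. Depth limits Pllp, Mia, Gfap and Sox9 most.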
